A study of Mus musculus with 6 samples.

Results

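Platelets are cell fragments shed by megakaryocytes, and they carry over the RNA of their parent cell. They bind collagen, fibrinogen and von Willebrand factor through a small set of glycoproteins and release chemokines from their granules. They also carry CD36 on their surface, and in an injured liver they adhere to leukocytes and to the sinusoidal wall. Whether platelet RNA marked NK cells sorted for CD36 was examined with 10 genes: the granule chemokines Pf4 and Ppbp, the fibrinogen receptor subunits Itga2b and Itgb3, the von Willebrand factor receptor genes Gp1ba, Gp1bb and Gp9, the activating receptors Gp6 and Clec1b, and the granule membrane protein gene Treml1. They were taken by symbol from a table of 57180 mouse genes, in which all 10 had a row and a count. A count was present for 27171 genes of the table, and 14761 had enough counts to be tested, 6 of the 10 among them.

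The NK cells (CD3- NK1.1+) came from the livers of male C57BL/6J mice of 6 to 8 weeks with fibrosis. All the mice had received carbon tetrachloride (CCl4), a hepatotoxin, at 2.5 ml/kg of a 20% solution in olive oil, with 2 injections per week for 4 weeks, and livers were taken 48 h after the last injection. The cells were sorted with an antibody against CD36 into CD36+ NK and CD36- NK, with 3 libraries in each group, which the series calls biological triplicates. The mice behind each library are not given, no untreated group was analysed here, and no antibody against the platelet integrin subunits CD41 or CD61 is among those listed for staining.

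The libraries held between 10292480 and 13787189 counts, and 1 count corresponded to between 0.0725 and 0.0972 CPM (counts relative to the library total) before TMM scaling of the totals. The library names of the samples titled CD36+ carry a minus sign after CD36, and groups were set by title. The Cd36 transcript stood between 110 and 263 CPM in CD36+ NK and between 14.3 and 31.7 CPM in CD36- NK, the direction that the titles give. The NK genes did not mark both groups alike: the 12 NK markers examined, among them Gzma, Ccl5 and Prf1, were all lower in CD36+ NK (edgeR), with a median log2 fold change of -2.43, and summed to between 1115 and 1335 CPM against between 5886 and 7608 CPM. In bulk RNA, fewer cells of a type and less RNA per cell cannot be told apart.

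The platelet genes did not move as 1 group. Clec1b, Pf4 and Ppbp were higher in CD36+ NK, whereas Itgb3, Itga2b and Gp1bb were not called in either direction and had log2 fold changes below 0. Gp9, Gp6 and Treml1 stood above CD36- NK in every CD36+ NK library, but fewer than 3 of their libraries reached the minimum level of 0.845 CPM, so they were left out of the edgeR test. Gp1ba and Gp6 were at or below 3 counts, taken as the floor of detection, in 4 of the 6 libraries. Genes were called when the Benjamini-Hochberg adjusted p of edgeR's quasi-likelihood test was below 0.05 and the fold change was above 2. By this rule 3 of the 6 tested genes were called, against 5.96% of all tested genes, and all 3 were higher in CD36+ NK, as were 2.98% of all tested genes. The median log2 fold change of the 6 was 0.68, against 0.01 over all tested genes. Pf4 had entered the test through CD36+ NK, where all 3 libraries passed the minimum level against 1 in CD36- NK, so these counts describe the 6 genes and are no support for a direction. None of the 3 calls held in all 6 of the fits that left out 1 library.

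**Figure D1:**
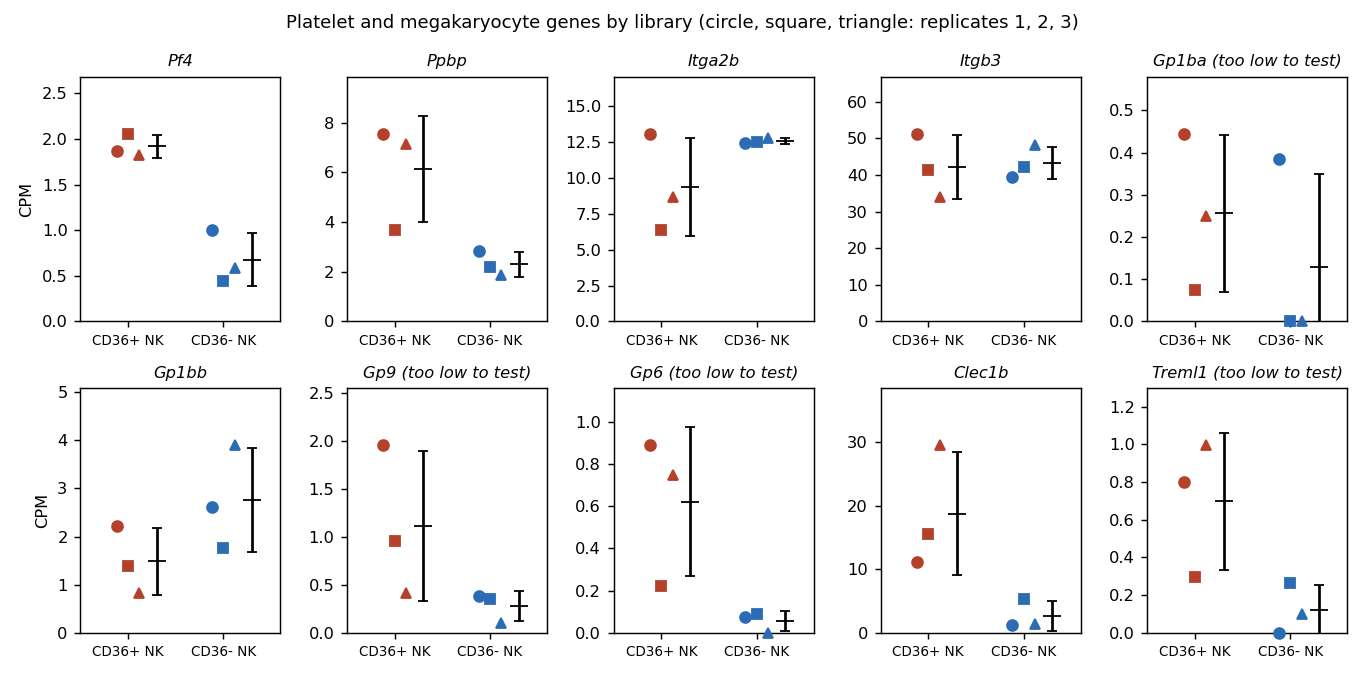
CPM of the 10 platelet and megakaryocyte genes in the 6 libraries, with 1 panel per gene and its own axis from 0. Red points are CD36+ NK, blue points CD36- NK, the marker shape gives the replicate, and the black bar is the mean with the SD (n = 3), cut at 0. Pf4, Ppbp, Clec1b, Gp9, Gp6 and Treml1 have every CD36+ NK point above every CD36- NK point, and Itga2b, Itgb3, Gp1ba and Gp1bb overlap.

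The start regions of 4 of these genes are shown because they stand for the 2 kinds of behaviour: Pf4, Ppbp and Clec1b were called and Itga2b was not. Megakaryocyte genes are known targets of GATA and ETS transcription factors, and the capitals mark the short cores GATAA and GGAAG, read on both strands (TTATC and CTTCC on the other). Each stretch is the 250 bases before the transcription start in RefSeq (GRCm38.p6), written along the strand of the gene. Pf4 is chr5:90772185-90772434 on the plus strand, Ppbp chr5:90768268-90768517 on the plus strand, Clec1b chr6:129397047-129397296 on the plus strand and Itga2b chr11:102469884-102470133 on the minus strand.
Pf4: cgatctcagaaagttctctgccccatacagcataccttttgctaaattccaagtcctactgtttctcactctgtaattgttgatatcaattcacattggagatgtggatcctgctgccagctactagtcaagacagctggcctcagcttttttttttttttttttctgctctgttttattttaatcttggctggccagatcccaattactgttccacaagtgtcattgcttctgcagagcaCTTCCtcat
Ppbp: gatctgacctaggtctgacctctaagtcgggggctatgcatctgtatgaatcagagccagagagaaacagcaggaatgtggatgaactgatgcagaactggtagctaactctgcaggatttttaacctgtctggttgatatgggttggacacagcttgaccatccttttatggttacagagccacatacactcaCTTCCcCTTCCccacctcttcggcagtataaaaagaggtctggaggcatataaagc
Clec1b: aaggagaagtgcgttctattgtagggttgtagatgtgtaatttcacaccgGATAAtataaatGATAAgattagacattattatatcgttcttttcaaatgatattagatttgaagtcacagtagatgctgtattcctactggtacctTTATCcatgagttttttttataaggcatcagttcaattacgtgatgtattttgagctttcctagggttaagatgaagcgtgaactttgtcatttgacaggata
Itga2b: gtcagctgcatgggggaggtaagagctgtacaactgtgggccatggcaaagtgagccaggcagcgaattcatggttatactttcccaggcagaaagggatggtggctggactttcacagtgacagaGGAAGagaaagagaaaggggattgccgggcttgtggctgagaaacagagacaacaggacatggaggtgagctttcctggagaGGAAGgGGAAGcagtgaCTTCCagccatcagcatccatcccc
Clec1b held 3 GATAA cores, at 200, 188 and 103 bases before the start, and no GGAAG core. Itga2b held 4 GGAAG cores, Ppbp 2 and Pf4 1, and none of them a GATAA core. Of the 10 genes, 9 had an entry, and GATAA was found in 4 of the 9 and GGAAG in 7, against 22.6% and 64.1% of 32851 start regions of the same length. The cores are short, and a match describes letters and not a bound site.

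Pf4 and Ppbp are neighbouring chemokine genes whose products, platelet factor 4 and pro-platelet basic protein, are stored in platelet alpha granules. In mice Pf4 is also transcribed in macrophages. In the table Pf4 (ENSMUSG00000029373) spans chr5:90920294-90921242 and Ppbp (ENSMUSG00000029372) chr5:90916377-90917922, both on the plus strand and 2371 bases apart. The build of the table's coordinates is not named, and they differ from those of GRCm38.

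Pf4 had 21, 28 and 22 counts in CD36+ NK replicates 1 to 3 and 13, 5 and 6 counts in CD36- NK replicates 1 to 3. As CPM these were 1.87, 2.06 and 1.83 against 0.999, 0.442 and 0.586. The CD36+ NK libraries lay close together, and all were above CD36- NK. The means were 1.92 ± 0.123 and 0.676 ± 0.289 CPM (SD, n = 3), and the log2 fold change was 1.47 with a standard error of 0.36 and a 95% interval from 0.63 to 2.32 (edgeR, adjusted p = 0.0445). The call did not hold without any 1 of the 6 libraries, with adjusted p from 0.0532 to 0.140, nor in DESeq2 (adjusted p = 0.0618) or edgeR with no filter on low counts (adjusted p = 0.0701). With 95 counts over all libraries, Pf4 was the lowest of the 6 tested platelet genes.

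Ppbp stood higher, at 85, 50 and 86 counts in CD36+ NK and 37, 25 and 19 counts in CD36- NK. The levels were 7.57, 3.68 and 7.15 CPM against 2.84, 2.21 and 1.86 CPM. CD36+ NK replicate 2 was the lowest of its group and was still above the highest CD36- NK library. The log2 fold change was 1.40 with a standard error of 0.34 and a 95% interval from 0.60 to 2.19 (edgeR, adjusted p = 0.0435), from means of 6.13 ± 2.13 and 2.30 ± 0.501 CPM (SD, n = 3). The call held without CD36+ NK replicate 2 and was lost without each of the other libraries, with adjusted p from 0.0898 to 0.143, and with no filter on low counts (edgeR adjusted p = 0.0618).

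Itga2b and Itgb3 encode integrin αIIb (CD41) and integrin β3 (CD61), which together form the platelet fibrinogen receptor. Itga2b is largely restricted to the megakaryocyte lineage and some progenitors, while β3 also pairs with integrin αV in other cells. Itga2b (ENSMUSG00000034664) spans chr11:102344123-102360948 on the minus strand and Itgb3 (ENSMUSG00000020689) chr11:104498826-104561302 on the plus strand. These were not the genes that separated the groups.

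Itga2b had 147, 87 and 104 counts in CD36+ NK and 162, 141 and 131 counts in CD36- NK. The levels were 13.1, 6.40 and 8.65 CPM against 12.5, 12.5 and 12.8 CPM. The CD36- NK libraries were nearly equal, with a coefficient of variation of 1.53%, and CD36+ NK held both the highest and the lowest library. The log2 fold change was -0.43 with a 95% interval from -1.03 to 0.18 (edgeR, adjusted p = 0.351), and the interval leaves out a 2-fold rise.

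Itgb3 was the most abundant of the 10 genes by counts, with 577, 562 and 409 counts in CD36+ NK and 513, 477 and 493 counts in CD36- NK. The levels were 51.4, 41.4 and 34.0 CPM against 39.4, 42.2 and 48.1 CPM, and the groups overlapped. The log2 fold change was -0.03 with a 95% interval from -0.42 to 0.35 (edgeR, adjusted p = 0.928). Its sign turned to 0.10 without CD36+ NK replicate 3 and to 0.04 without CD36- NK replicate 3, both far from a call.

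The integrin subunits also differed in their ratio to each other. As FPKM, the counts scaled to a gene length and the library total, Itgb3 stood between 2.98 and 6.07 times Itga2b in the 6 libraries. It was the higher of the pair in each. The lengths implied by the FPKM were 8635 bases for Itgb3 and 8117 for Itga2b, and they were not checked against an annotation. By profile, the genes most like Itgb3 were Sec16a, Pomt2 and Grap2, with root mean square differences of 0.0336, 0.0548 and 0.0581 between centred log2 CPM over the 6 libraries. Itga2b was far less like Itgb3 by the same measure, at 0.325. The genes most like Itga2b were 1700037H04Rik, Cplane2 and Steap3, at 0.0900, 0.0959 and 0.0960.

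Gp1ba, Gp1bb and Gp9 encode subunits of the GPIb-IX complex, through which platelets hold on to von Willebrand factor under flow. Gp1ba carries the binding site, Gp1bb is linked to it, and Gp9 is needed for the complex to reach the surface. The 3 genes behaved differently from each other.

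Gp1ba (ENSMUSG00000050675, chr11:70529948-70532862, plus strand) had 5, 1 and 3 counts in CD36+ NK and 5, 0 and 0 counts in CD36- NK. In 4 of the 6 libraries it was at or below the floor of 3 counts. The groups overlapped. The ratio of summed counts, each over the summed TMM library sizes of its group, was 1.69 with a 95% counting interval from 0.508 to 6.41. The two-sided exact permutation test on the mean CPM gave p = 0.5, so a difference was not detectable at this depth.

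Gp1bb (ENSMUSG00000050761, chr16:18439067-18441153, minus strand) had 25, 19 and 10 counts in CD36+ NK and 34, 20 and 40 counts in CD36- NK. The levels were 2.23, 1.40 and 0.831 CPM against 2.61, 1.77 and 3.91 CPM, with overlap. The log2 fold change was -0.89 with a 95% interval from -1.93 to 0.15 (edgeR, adjusted p = 0.258). The value is uncertain because 1902 bases of Gp1bb overlap Septin5 on the same strand, and Septin5 itself had 183, 62 and 62 counts against 360, 193 and 177 counts.

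Gp9 (ENSMUSG00000030054, chr6:87755054-87756750, plus strand) had 22, 13 and 5 counts in CD36+ NK and 5, 4 and 1 counts in CD36- NK. As CPM these were 1.96, 0.956 and 0.416 against 0.384, 0.354 and 0.0977, so the lowest CD36+ NK library lay just above the highest CD36- NK library. The ratio of summed counts, each over the summed TMM library sizes of its group, was 3.75 with a 95% counting interval from 1.84 to 8.41. The two-sided exact permutation test on the mean CPM gave p = 0.1, the smallest that 3 against 3 libraries allow.

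Gp6 encodes the platelet collagen receptor, and Clec1b encodes CLEC-2, the receptor for podoplanin, and both signal through Syk. Clec1b is also transcribed in mouse Kupffer cells, the resident macrophages of the liver. Of the 10 genes Clec1b had the largest tested difference and the widest spread among the called ones.

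Clec1b (ENSMUSG00000030159, chr6:129374260-129386298, plus strand) had 125, 212 and 356 counts in CD36+ NK and 15, 60 and 15 counts in CD36- NK. The levels were 11.1, 15.6 and 29.6 CPM against 1.15, 5.31 and 1.47 CPM. All CD36+ NK libraries were above CD36- NK, and CD36- NK replicate 2 stood apart from the rest of its group. The log2 fold change was 2.83 with a standard error of 0.62 and a 95% interval from 1.37 to 4.30 (edgeR, adjusted p = 0.0334), from means of 18.8 ± 9.64 and 2.64 ± 2.31 CPM (SD, n = 3). The call was lost without replicate 2 or 3 of CD36+ NK and without replicate 1 or 3 of CD36- NK, with adjusted p from 0.0836 to 0.115. Without CD36- NK replicate 2 the log2 fold change rose to 3.84. Clec1b overlaps Clec9a over 474 bases. Clec9a, a dendritic cell receptor gene on the same strand, had 176, 200 and 223 counts against 39, 76 and 23 counts, so reads of the overlap may have been assigned to either.

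Gp6 (ENSMUSG00000078810, chr7:4366964-4400743, minus strand) had 10, 3 and 9 counts in CD36+ NK and 1, 1 and 0 counts in CD36- NK. The ratio of summed counts, each over the summed TMM library sizes of its group, was 10.3. Its 95% counting interval was wide, from 2.54 to 90.5 (two-sided exact permutation p = 0.1). Treml1 (ENSMUSG00000023993, chr17:48666944-48674204, plus strand), whose product moves from alpha granules to the surface of activated platelets, had 9, 4 and 12 counts in CD36+ NK and 0, 3 and 1 counts in CD36- NK. The same ratio of summed counts was 5.86 for Treml1, with a 95% counting interval from 2.02 to 23.2 (two-sided exact permutation p = 0.1). Both genes were at or below the floor of 3 counts in every CD36- NK library, and Gp6 was at it in CD36+ NK replicate 2 as well. These intervals cover counting error only. Of 3137 untested genes with between 14 and 50 counts in all, the range of the 4 untested platelet genes, 314 also had every CD36+ NK library above every CD36- NK library.

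Over the 10 genes, every CD36+ NK library was above every CD36- NK library for 6 genes, the groups overlapped for 4, and no gene showed the opposite order. Among all tested genes 17.0% had CD36+ NK above in this way. Within CD36+ NK, replicate 1 was the highest library for 7 of the 10 genes.

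**Figure D2:**
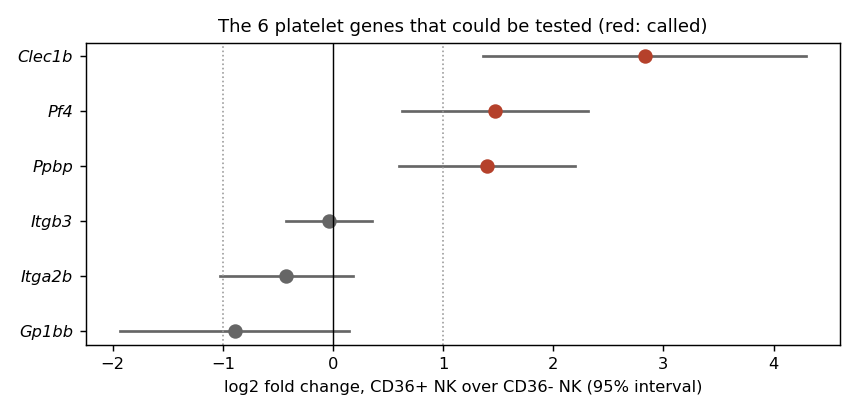
Log2 fold change of CD36+ NK over CD36- NK for the 6 platelet genes that could be tested, with 95% intervals (edgeR, 3 libraries per group). Dotted lines mark a 2-fold change either way and red points the called genes. Clec1b lies at 2.83, Pf4 at 1.47 and Ppbp at 1.40, while Itgb3, Itga2b and Gp1bb lie at -0.03, -0.43 and -0.89.

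**Figure D3:**
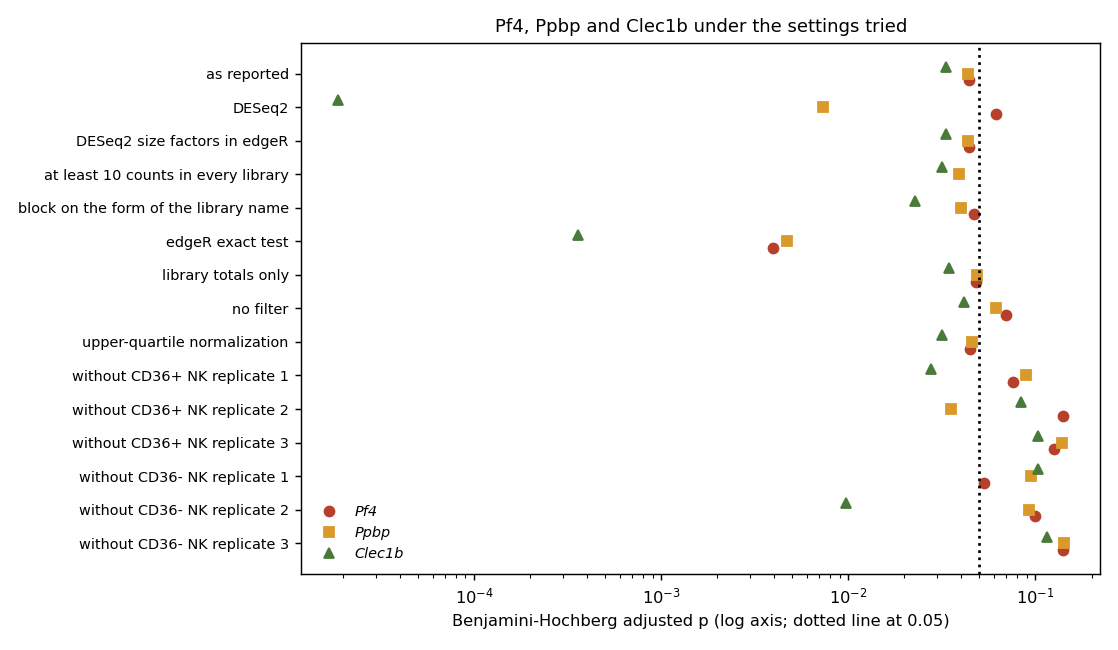
Adjusted p (log axis) of Pf4, Ppbp and Clec1b as reported and under other tests, scalings, filters and left-out libraries, with a dotted line at 0.05. Points right of the line are not called, and Pf4 lies right of it without each of the 6 libraries.

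The order of the genes by FPKM also differed between the groups. The length implied by the FPKM was 1359 bases for Pf4, 5190 for Gp1ba and 3171 for Gp1bb. Each is longer than the span of the gene given above, so the order between genes is uncertain. By this measure CD36+ NK had Ppbp first at 5.58 ± 1.97 FPKM (SD, n = 3), then Itgb3 at 4.83 ± 1.13, Clec1b at 3.11 ± 1.51, Pf4 at 1.39 ± 0.104, Gp9 at 1.26 ± 0.913 and Itga2b at 1.14 ± 0.440 FPKM. Below them came Gp1bb at 0.465, Treml1 at 0.205, Gp6 at 0.0989 and Gp1ba at 0.0489 FPKM. Neighbours in this order overlapped in 7 of 9 cases, and only Clec1b over Pf4 and Itga2b over Gp1bb had no library in common range.

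In CD36- NK, Itgb3 was first at 5.06 ± 0.467 FPKM (SD, n = 3), then Ppbp at 2.15 ± 0.477, Itga2b at 1.57 ± 0.0158, Gp1bb at 0.878 ± 0.328, Pf4 at 0.502 ± 0.214 and Clec1b at 0.458 ± 0.408 FPKM. Gp9 followed at 0.322, Treml1 at 0.0370, Gp1ba at 0.0250 and Gp6 at 0.00910 FPKM. Here the steps from Itgb3 to Ppbp, Itga2b and Gp1bb, and from Gp9 to Treml1, had no overlap, and the other 5 neighbours overlapped.

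Summed over the 10 genes, the level was 91.3, 72.0 and 84.5 CPM in CD36+ NK and 60.3, 65.1 and 69.0 CPM in CD36- NK, and the groups did not overlap. Itgb3 alone gave between 40.3% and 57.4% of the counts of the 10 genes in CD36+ NK and between 64.8% and 69.8% in CD36- NK. Without Clec1b and Pf4, the genes known from macrophages, the sums ran from 53.0 to 78.3 CPM in CD36+ NK and from 58.2 to 66.9 CPM in CD36- NK, and the groups overlapped. Most of that sum was Itgb3 and Itga2b. Without these as well, the other 6 genes summed to between 6.62 and 13.9 CPM against between 4.69 and 6.30 CPM, with no overlap. Of the means of this sum, 10.3 and 5.65 CPM, Ppbp gave 6.13 and 2.30 CPM and Gp1bb gave 1.48 and 2.76 CPM. Without Itgb3 and Itga2b alone, the sums were between 24.3 and 41.8 CPM against between 8.01 and 10.4 CPM. Leaving out Itgb3 and Itga2b was chosen after the values were seen, so these sums are a description.

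A wider list of 61 further platelet genes was set beside these 10. Of its genes 56 were tested, with 29 log2 fold changes above 0 and 27 below, and the median was 0.08 against 0.01 for all tested genes. The list gave 11 calls (19.6%, against 5.96% of all tested genes), of which 3 were higher in CD36+ NK and 8 were lower, and 2.98% of all tested genes were called lower. In 13 of the 56 genes every CD36+ NK library was above every CD36- NK library, and in 14 the opposite held, as for 15.7% of all tested genes.

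The calls higher in CD36+ NK were Vwf, Ptgs1 and Pla2g4a. Vwf, the gene of von Willebrand factor, which endothelium makes as well, stood at 8.54, 16.8 and 23.6 CPM in CD36+ NK against 2.54, 4.95 and 2.64 CPM in CD36- NK (log2 fold change 2.27, edgeR adjusted p = 0.0214). Ptgs1, cyclooxygenase 1, averaged 92.9 ± 50.7 CPM against 20.5 ± 12.7 CPM (SD, n = 3; log2 fold change 2.18, edgeR adjusted p = 0.0426). Pla2g4a, a phospholipase that frees arachidonic acid, had a log2 fold change of 1.63 (edgeR adjusted p = 0.0471), and Tbxas1, thromboxane synthase, one of 1.42 that was not called (edgeR adjusted p = 0.0570). Alox12, a lipoxygenase and the fourth gene of this group of lipid mediator enzymes, was at 0.73 and was not called (edgeR adjusted p = 0.441). Cyclooxygenase 1 and thromboxane synthase are known from macrophages too. Vwf, Ptgs1 and Pla2g4a each lost the call without replicate 2 or 3 of CD36+ NK and without replicate 1 or 3 of CD36- NK, with adjusted p between 0.0666 and 0.141. With no filter on low counts Ptgs1 and Pla2g4a were not called either (edgeR adjusted p = 0.0554 and 0.0637). Pla2g4a also lost the call when scaled by library totals only (edgeR adjusted p = 0.0509) and with the form of the library name as a block (edgeR adjusted p = 0.0589).

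The calls lower in CD36+ NK were Itga2, F2rl2, Pear1, Dok2, Ctla2a, Nbeal2, Rab27b and Zfpm1. Itga2 encodes integrin α2 (CD49b), a collagen receptor subunit of platelets that is also a marker of mouse NK cells, and stood at 24.7, 33.0 and 27.0 CPM against 133, 159 and 217 CPM (log2 fold change -2.59). Rab27b and Dok2, a granule transport GTPase and a signalling adaptor, fell from means of 7.85 and 219 CPM in CD36- NK to 1.31 and 54.7 CPM in CD36+ NK. Ctla2a, F2rl2 and Pear1 were lower, with log2 fold changes of -2.09, -1.87 and -1.41, and Zfpm1, the GATA1 cofactor FOG-1, at -1.23. Nbeal2, which alpha granules need to form, was lower at -1.08 and fell below the fold threshold without CD36- NK replicate 3. The other 7 of these genes were called without each of the libraries.

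The most restricted platelet genes of the wider list were not called. Gp5, a partner of the GPIb-IX complex, had a log2 fold change of 0.74 (edgeR adjusted p = 0.508), and Tubb1, the platelet β-tubulin, one of 0.87 (edgeR adjusted p = 0.122). The megakaryocyte and erythroid factors Gata1 and Gfi1b had 1.07 and 0.92 (edgeR adjusted p = 0.399 and 0.414), each with its highest level in CD36+ NK replicate 1. These 4 genes were chosen after their values were seen. Among the abundant genes of the list, Cd9, Srgn, Tgfb1, Rap1b, Fcer1g and Plek had log2 fold changes of -0.11, 0.52, 0.26, 0.11, 0.07 and -0.26 and were not called. Fli1 was at -0.41 with an edgeR adjusted p of 0.0383, under the fold threshold.

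**Figure D4:**
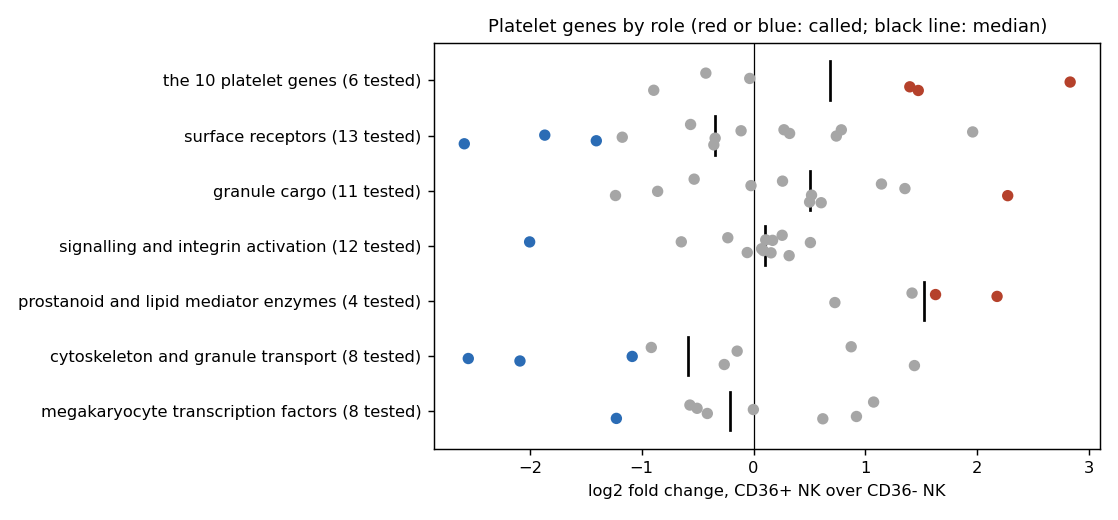
Log2 fold change of CD36+ NK over CD36- NK for the tested genes of the 10 and of the wider platelet list, 1 point per gene, in rows by role, with the vertical position within a row random. Red and blue points are called higher and lower, grey points are not called, and black lines are medians. The prostanoid and lipid mediator enzymes have a median of 1.52, the granule cargo genes 0.50, and the surface receptors -0.34.

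Markers of other cell types moved between the same groups. Of 13 Kupffer cell and macrophage markers 10 were tested, all with log2 fold changes above 0 and 4 of them called higher in CD36+ NK. The median was 2.89, and the list's sum ran from 2521 to 6326 CPM against 390 to 1516 CPM. Clec4f, which defines Kupffer cells, was at 0 counts in every CD36- NK library and in CD36+ NK replicate 3, and at 1.51 and 45.9 CPM in CD36+ NK replicates 1 and 2. Csf1r, C1qb and C1qa, the most abundant of the list, had log2 fold changes of 1.89, 2.87 and 2.91, and of these only Csf1r was called (edgeR adjusted p = 0.0378, 0.0527 and 0.0576). By the sum of these markers, the 4 highest libraries came in the same order as for Clec1b, Vwf, Ptgs1 and Pla2g4a: CD36+ NK replicates 3, 2 and 1, then CD36- NK replicate 2. Pf4 and Ppbp did not follow this order, with CD36+ NK replicates 2 and 1 as their highest libraries and CD36- NK replicate 1 as the fourth of both. The 10 tested markers were each highest in CD36+ NK replicate 3. The untested Clec4f, Vsig4 and Folr2 were highest in CD36+ NK replicate 2, where Vsig4 and Folr2 stood at 13.3 and 4.49 CPM. In CD36+ NK replicate 3 these 2 were at 0.499 and 0.831 CPM. The part of these cells in the platelet gene values was not tested.

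Erythroid markers had log2 fold changes above 0 in 9 of 9 tested genes, with 5 calls, at a median of 1.82 and sums from 356 to 811 CPM against 78.5 to 178 CPM. Hbb-bs, Hba-a1 and Hba-a2 led the list at 2.11, 2.07 and 2.25, and near-identical globin copies make their single values uncertain. Of the 6 libraries, CD36+ NK replicate 1 was highest for the sum of these markers, as it was for 6 of the 10 platelet genes and for the sum of the neutrophil markers. Among the 10 genes only Gp9, at 50 counts in all, had the order of the erythroid sum over all 6 libraries. The part of erythroid cells in the platelet gene values was not tested.

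Of the 8 sinusoidal endothelial markers 4 were tested, with a median log2 fold change of 0.47 and no call at sums from 214 to 307 CPM against 154 to 170 CPM, which were mostly Pecam1 (0.38). Stab2 and Egfl7 had 2.79 and 0.56, and Ptprb had at most 2 counts in any library. The endothelial sums began with the same 4 libraries as the macrophage markers, and their order over all 6 libraries was that of Clec1b and Vwf. All 8 basophil and mast cell markers had log2 fold changes below 0, with a median of -1.24, 1 call (Kit, -1.15) and sums from 56.7 to 91.1 CPM against 138 to 177 CPM, and Prss34 and Mcpt8 stood at -1.34 and -1.40. The 8 neutrophil markers, led by S100a9, Ltf and S100a8 at -0.36, -0.43 and -0.24, had 3 log2 fold changes above 0 and 5 below, a median of -0.30, no call, and overlapping sums from 508 to 3433 CPM against 1187 to 2927 CPM. The part of these cells was not tested either.

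**Figure D5:**
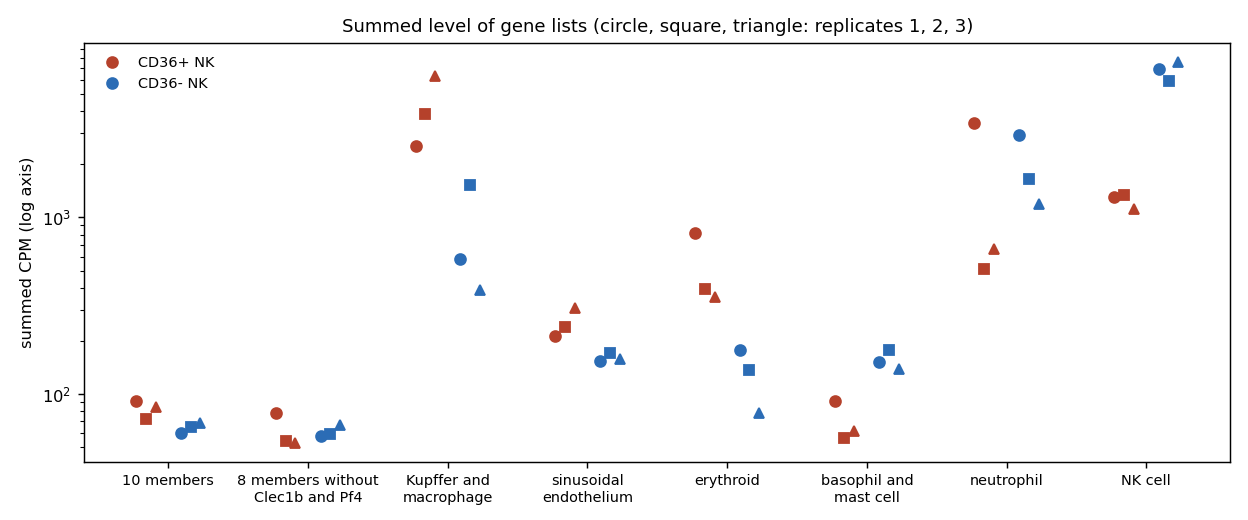
Summed CPM (log axis) of the 10 platelet genes, of 8 of them without Clec1b and Pf4, and of 6 marker lists, in each library. Red points are CD36+ NK, blue points CD36- NK, and the marker shape gives the replicate. The sums of the 10 platelet genes lie between 60.3 and 91.3 CPM and those of the 8 between 53.0 and 78.3 CPM. The Kupffer and macrophage sums reach 6326 CPM in CD36+ NK.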

How the data were processed

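Total RNA was sequenced in 3 samples of each group. Per the study's methods, the authors filtered reads with Seqtk, mapped them with HISAT2 (2.0.4 in the submitters' processing notes), used StringTie to obtain a fragment count for every gene, and these counts were deposited unnormalized. Beside them the authors deposited FPKM values, taken as counts over gene length and library total. The length that they imply was the same in every library within 1% for 100% of 7439 well-covered genes. That length was worked out from the FPKM themselves, so it was not checked against an annotation. FPKM values were used for levels between genes and, as an alternative, for the summed level, and entered no test. The notes name a rat assembly, while the table holds mouse genes, and its build is not given in the sources used here. The lines of 2 genes were broken and were rejoined.

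Counts were tested with edgeR 4.0.16 (quasi-likelihood test, R 4.3.3) over 14761 genes kept by filterByExpr with a minimum count of 10, scaled by TMM, with Benjamini-Hochberg adjustment over the tested genes. The common biological coefficient of variation was 20.3%. CPM use the TMM sizes. The standard error of a log2 fold change is its size over the root of F. On simulated counts for this comparison, 200 of 14761 genes, drawn at any level, were changed by more than 2-fold. The script called 161 of them (80.5%) and 6 unchanged genes. The share for genes as low as the platelet genes was not measured separately. For genes too low to test, the counting interval is exact binomial (95%), and the permutation test was exact (scipy 1.17.1). The floor was taken as 3 counts. Libraries of a group differed beyond sampling noise (chi-square over its degrees of freedom between 14.8 and 29.2), and each counted as 1 sample. Nothing in the labels says from which animals they came, so p-values measure the spread between these samples, which may in part be technical.

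The 10 genes and all lists were chosen with earlier results of these data known. Named were the 10 genes, Cd36, of each role of the wider list the 2 genes of highest FPKM and up to 3 called genes in each direction, of each marker list the 3 genes of highest CPM, and the 3 nearest profiles of the 2 most abundant tested platelet genes by CPM. Septin5 and Clec9a were named for their overlap, and Clec4f, Vsig4, Folr2, Ptprb and Alox12 for their values, after the values were seen. Start regions come from RefSeq (GRCm38.p6). The alternatives tried were edgeR's exact test, DESeq2 1.42.0, other scalings, filters, fold thresholds and blocks, and each library left out.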

Additional observations from a re-analysis of the deposited data

How the results depend on the processing

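The number of platelet genes called was 3 as reported and 1 with no filter on low counts. It fell to between 0 and 1 when each library was left out in turn. The wider platelet list gave 11 calls as reported and between 7 and 15 with a library left out. All genes gave 880 calls as reported, 1552 with no fold threshold and between 417 and 1160 with a library left out. The log2 fold change of Pf4 stayed between 1.25 and 1.87 without each library and was 1.48 in DESeq2 and 1.48 with no filter, all without a call. Pf4 has no value with at least 10 counts required in every library, where it is not tested. Ppbp stayed between 1.20 and 1.66 without each library and was at 1.41 with no filter, where it was not called. Clec1b ran from 2.34 to 3.84 without each library. Itgb3 ran from -0.21 to 0.10 without each library and changed sign in 2 of these 6 fits (0.10 and 0.04), while Itga2b and Gp1bb kept their sign and were not called under any alternative. The log2 ratio of the summed level was 0.35 in CPM, 0.72 in FPKM, 0.0103 without Clec1b and Pf4, and between 0.27 and 0.44 without each library. In sums chosen after seeing the data it was 1.79 without Itgb3 and Itga2b and 0.87 without these, Clec1b and Pf4. Where a value above changed, the cause was not tested, beyond the fewer samples or genes of some fits.

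The titles give both groups replicate numbers 1 to 3, but deviations from the group means correlated at 0.310, 0.0515 and -0.0837 between same-numbered libraries, and only replicate 1 correlated best with its own number, so the numbers were not taken as pairs. With the replicate block 0 platelet genes were called (log2 fold changes 1.52 for Pf4, 1.36 for Ppbp and 2.91 for Clec1b, edgeR adjusted p = 0.0883, 0.0683 and 0.0551), and 560 genes in all. Of the 11 calls of the wider list, 9 held with it, and Ptgs1 and Pla2g4a did not (edgeR adjusted p = 0.0792 and 0.106). Over the alternatives tried, the adjusted p ran from 0.00395 to 0.140 for Pf4, from 0.00472 to 0.143 for Ppbp and from 1.87e-05 to 0.115 for Clec1b. Depth limits Gp1ba, Gp6, Treml1 and Gp9, which had between 14 and 50 counts over the 6 libraries.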
